A study of Mus musculus with 12 samples.

Results

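LRH-1, the orphan nuclear receptor encoded by Nr5a2, was examined together with the repressor SHP (Nr0b2), the corepressors Prox1, Ncor1 and Nrip1, the coactivators Ncoa1, Ncoa2 and Ncoa3, and the Mediator subunit Med1. These 9 genes were selected by symbol and not by a measured value, though with earlier results of these data known. Of the 9, 8 had a row under their symbol in the platform annotation, each with 1 probe set, among 19938 genes in all. Ncor1 was not listed in the annotation used here and has no value below.

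Affymetrix gene arrays, 1 per mouse, were hybridised with liver RNA of 12 male mice of C57BL/6J background. In 6 mice the receptor was wild type (WT), and in 6 it carried the LRH-1 K289R knock-in, which replaces a lysine that can be modified by SUMO with arginine. Every mouse had been fasted for 24 h and then given food again for 6 h, so feeding, sex and tissue were shared by the groups. The labels give no age, and the genotype label of mouse WT 4 carries extra copies of the strain name after WT, whereas its title and source name read WT. The knock-in is present in all cells that express Nr5a2, and whole liver was measured, so fewer cells of a type and less RNA per cell cannot be told apart.

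LRH-1 binds DNA as a monomer and drives genes of bile acid and cholesterol metabolism in hepatocytes. Its own target SHP lacks a DNA-binding domain and represses LRH-1 and other receptors, which closes a feedback loop on bile acid synthesis. Prox1 is a homeodomain protein that binds LRH-1 and lowers its activity, and SUMO attachment to LRH-1 favours that binding. The p160 coactivators and Med1 link nuclear receptors to histone acetylation and RNA polymerase II, whereas Ncor1 and Nrip1 recruit deacetylases and other repressors.

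The promoter of Nr0b2 is shown because SHP is the member whose transcription LRH-1 itself controls, and those of Nr5a2 and Cyp8b1 because they complete the receptor, repressor and enzyme loop measured here. Each sequence is the 250 bases before a RefSeq start site (GRCm38.p6), written 5′ to 3′ on the gene's strand, and the capitals mark the letters CAAGG, the core of the element that LRH-1 binds. The windows are chr4:133553126-133553375 on the plus strand for Nr0b2, chr1:136953631-136953880 on the minus strand for the second of 2 start sites of Nr5a2, and chr9:121916306-121916555 on the minus strand for Cyp8b1.
Nr0b2: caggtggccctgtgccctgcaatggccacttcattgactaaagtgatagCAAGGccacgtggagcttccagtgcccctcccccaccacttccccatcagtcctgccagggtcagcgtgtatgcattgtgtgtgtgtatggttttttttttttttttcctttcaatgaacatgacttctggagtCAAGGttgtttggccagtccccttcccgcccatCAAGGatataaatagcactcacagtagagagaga
Nr5a2: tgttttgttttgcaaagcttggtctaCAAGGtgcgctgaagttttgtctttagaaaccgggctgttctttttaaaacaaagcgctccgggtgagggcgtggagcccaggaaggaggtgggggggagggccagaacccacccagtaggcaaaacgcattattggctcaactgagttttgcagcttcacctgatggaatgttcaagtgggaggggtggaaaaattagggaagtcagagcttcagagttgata
Cyp8b1: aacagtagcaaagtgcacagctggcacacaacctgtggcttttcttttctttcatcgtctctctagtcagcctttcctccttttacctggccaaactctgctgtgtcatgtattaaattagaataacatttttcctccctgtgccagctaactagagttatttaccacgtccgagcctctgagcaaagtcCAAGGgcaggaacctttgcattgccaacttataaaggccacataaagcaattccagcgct

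The Nr0b2 window held CAAGG 3 times on the gene's strand, starting at positions -201, -67 and -34 from the start site. Of 32851 promoter windows of this length, 46.0% held CAAGG or its complement CCTTG at least 1 time and 3.0% held them 3 or more times. Counted on the gene's strand alone, 26.9% held CAAGG at least 1 time and 0.554% held it 3 or more times. Among the members 7 were in the promoter table, with 11 windows, and Nr0b2 and Nr5a2 were the 2 genes with a match. At Nr5a2 the match lay at -224 of the second start site, and the first start site had none. Cyp8b1, the sterol hydroxylase that sets the share of cholic acid, had a match at -60. Of 7 genes controlled by LRH-1 or SHP that were in the promoter table, 4 had a match (Cyp8b1, Plk3, Apoa1 and Apom), and the windows of Abcg5, Abcg8 and Osbpl3 had none. The longer sequence CAAGGTCA, which contains both CAAGG and AGGTCA, was in no member's window and in 1.33% of all windows. Only these exact letters were searched. The Nr0b2 match at -201 reads on as CAAGGCCA, which was not counted. AGGTCA alone was in 1 member's window (the first start site of Nr5a2) and in 14.0% of all windows. These matches are letters in a window and were not tested for binding.

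Hepatocyte transcripts marked every array as liver: all 10 markers, among them albumin (Alb), lay above the array median on 12 of 12 arrays, and the list mean was 11.98 to 12.04 on the log2 scale in WT and 11.95 to 11.99 in K289R. Signals on a few arrays stood apart. Pancreatic acinar markers, counted here because acinar cells also express Nr5a2, had list means of 8.51 and 9.14 (log2, 10 markers) on K289R 1 and K289R 3, against 4.57 to 4.75 on the WT arrays and at most 4.72 on the other K289R arrays. The acinar factor Rbpjl stayed dim, with WT intensities of 20.1 to 23.0 and K289R intensities of 18.0 to 24.6. Acute phase genes had list means of 8.89 and 9.03 on WT 1 and WT 3, against at most 6.66 on the other WT arrays. On K289R 4 and K289R 3 their means were 7.62 and 7.27, against at most 6.68 on the other K289R arrays. Kupffer cell markers had a list mean of 7.47 on K289R 4, against at most 6.99 on any other array. Results below are given with these arrays. Beside each member stand values without the acinar arrays, without the acute phase arrays WT 1 and WT 3, or without both.

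Nr5a2 transcript, which encodes the receptor itself, was not called different between the genotypes. Its log2 difference was 0.10, beside an SD of 0.13 among WT mice and 0.083 among K289R mice. On the WT arrays the intensity (probe set 10358210, linear units) was lowest at 268, had a median of 303 and reached 335. In K289R it ran from 293 to 350 with a median of 327. The groups overlapped along most of this range, and 1 K289R mouse, number 4, lay above the highest WT mouse. WT mice averaged 303 ± 27.1 and K289R mice 324 ± 18.4 (SD, n = 6 each), a ratio of 1.07 with a 95% interval of 0.966 to 1.19 (limma adjusted p = 0.582 over all genes). A rise of the receptor transcript beyond 1.19-fold lay outside this interval. On the acinar arrays Nr5a2 read 293 (K289R 1, the lowest of its group) and 323 (K289R 3), and its log2 difference was 0.14 without them against 0.10 with all arrays. The probe set measures transcript amount and not the altered codon, so it does not check the genotype.

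SHP, the repressor, had the highest mean difference of the 8 genes but also a wide spread. Nr0b2 intensity (probe set 10508887) in WT mice was lowest at 221, had a median of 267 and reached 336. In K289R mice it was lowest at 214, had a median of 361 and reached 416. Of the 6 K289R mice, 4 (numbers 3 to 6) lay above every WT mouse, K289R 1 lay among the WT mice at 275, and K289R 2 lay below all of them. WT mice averaged 270 ± 45.7 and K289R mice 333 ± 74.6 (SD, n = 6 each), a log2 difference of 0.29 with an SE of 0.15 (limma adjusted p = 0.456). An exact two-sided permutation test over all ways to split the 12 arrays gave p = 0.128. The 95% interval ran from 0.984-fold to 1.52-fold, so neither equality nor a rise of 1.5-fold lay outside it. Leaving out K289R 2 gave a log2 difference of 0.41 and leaving out K289R 3 gave 0.22. Without the acinar arrays K289R 1 and 3 it was 0.26, and without the acute phase arrays WT 1 and 3 it was 0.31.

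Prox1, the corepressor, had nearly equal means in the genotypes, with WT mice lying much farther apart than K289R mice. WT intensity (probe set 10361023) ran from 180 to 398 with a median of 317, whereas the 6 K289R mice lay between 288 and 322 with a median of 300. Every K289R mouse therefore fell inside the WT range. WT 6 read 180 and WT 5 read 248, below all K289R mice, and WT 1, WT 3 and WT 4 read 398, 345 and 339, above all of them. WT mice averaged 301 ± 77.9 and K289R mice 302 ± 12.3 (SD, n = 6 each), with a log2 difference of 0.05 (limma adjusted p = 0.914) and a 95% interval of 0.839-fold to 1.28-fold. That difference was -0.09 without WT 6 and 0.22 without WT 1 and WT 3, and neither passed.

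On the log2 scale the SD of Prox1 was 0.41 in WT and 0.058 in K289R, a ratio of 7.12. Among all 19938 genes, 15 (0.0752%) had a WT to K289R ratio at least as large, and 52 (0.261%) had a ratio as large in either direction. The median ratio was 0.997. An exact permutation of the absolute deviations from each genotype's median gave p = 0.00649 (two-sided) for Prox1. The same test gave p under 0.05 in 5.21% of all genes, and after Benjamini-Hochberg adjustment over them none passed (adjusted p = 0.677 for Prox1). This comparison of spreads was added after the values had been seen. The ratio was 4.45 without WT 6, 6.82 without WT 1 and WT 3, and 5.85 without K289R 1 and K289R 3. Markers of lymphatic endothelium, a second Prox1-expressing cell type, had list means of 6.15 to 6.45 in WT and 6.28 to 6.62 in K289R (log2, 4 markers), and their part in the Prox1 values was not tested. WT 1 and WT 3, the arrays with high acute phase transcripts, were the highest for Prox1, and the part of that response was not tested either.

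**Figure D1:**
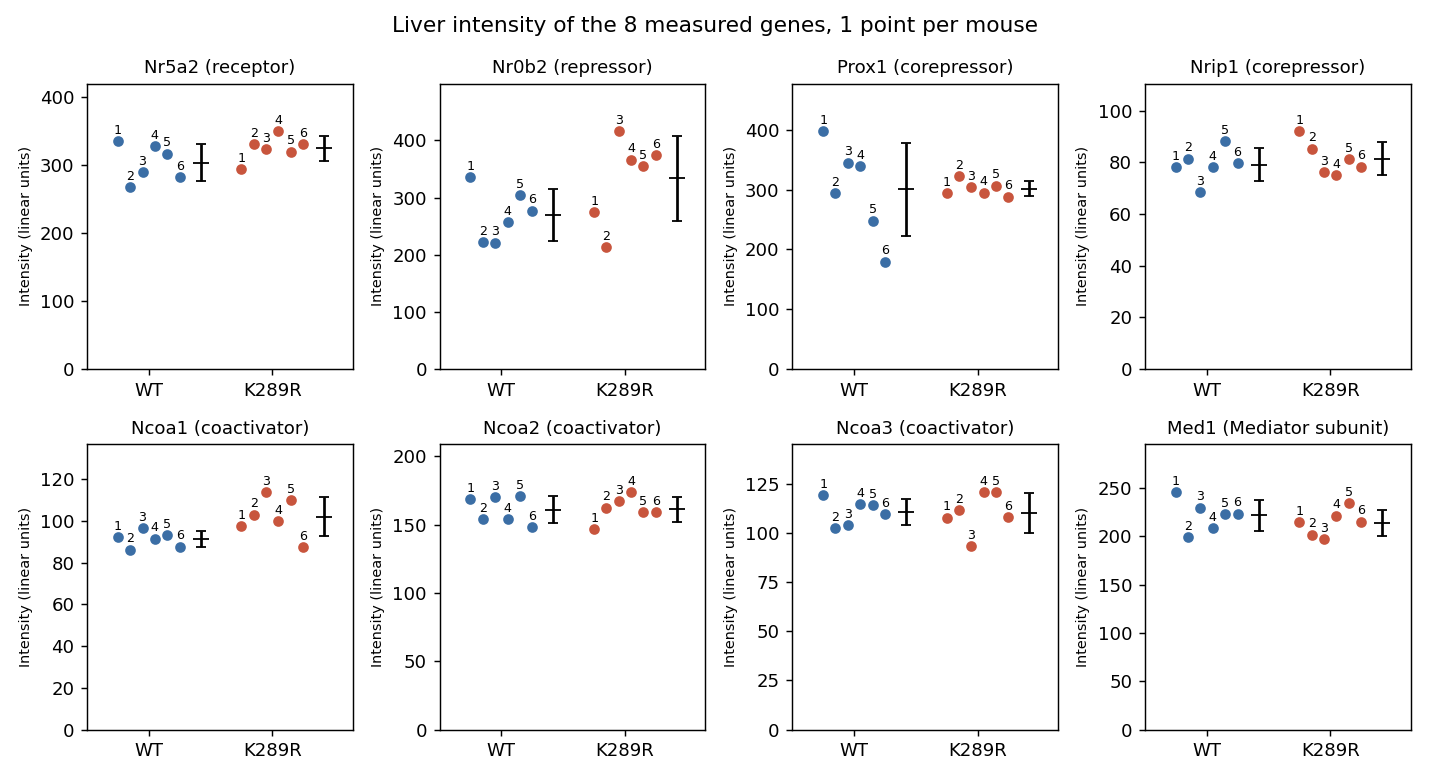
Linear intensity (y axis, from 0) of each of the 8 measured genes in each of 12 mice (points numbered by replicate), with WT in blue, K289R in red and the mean ± SD in black. Prox1 spans 180 to 398 in WT and 288 to 322 in K289R, 4 K289R mice lie above every WT mouse for Nr0b2, and 5 do for Ncoa1.

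Among the coactivators, Ncoa1 was the member with the smallest p. It encodes SRC-1, which binds agonist-bound nuclear receptors through LxxLL motifs. The 6 WT intensities (probe set 10399265) ran from 86.2 to 96.5 with a median of 91.8, and the 6 K289R intensities from 87.5 to 114 with a median of 101. K289R 1 to 5 all lay above the highest WT mouse, and K289R 6 lay near the bottom of the WT range. WT mice averaged 91.2 ± 3.77 and K289R mice 102 ± 9.39 (SD, n = 6 each), a ratio of 1.11 with a 95% interval of 1.01 to 1.23. The exact two-sided permutation test gave p = 0.0303 and limma an unadjusted p = 0.0400, but over all genes the adjusted p = 0.395 and Ncoa1 did not pass. On the log2 scale the difference was 0.16, and 0.13 when K289R 1 and K289R 3 were left out. K289R 3 had the highest Ncoa1 value of all.

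The related coactivators showed narrow intervals around equality. Ncoa2 (SRC-2, probe set 10353135) had medians of 161 in WT and 161 in K289R, with ranges of 148 to 171 and 147 to 174. Its log2 difference was 0.0041, and the ratio had a 95% interval of 0.912 to 1.10 (limma adjusted p = 0.985). Ncoa3 (SRC-3, probe set 10478718) had WT intensities of 103 to 119 (median 112) and K289R intensities of 93.4 to 121 (median 110). Its ratio was 0.995 with an interval of 0.894 to 1.11 (limma adjusted p = 0.976). The log2 difference of Ncoa2 was 0.042 without WT 1 and 3 and 0.063 without K289R 1 and 3 as well, and that of Ncoa3 was 0.059 without K289R 1 and 3. For these genes the sign of the difference changed with the arrays or the scaling used: Ncoa2 had a log2 difference of -0.04 after quantile normalization, and Ncoa3 of 0.03 with equal array medians. The lowest Ncoa3 value of all came from K289R 3.

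Med1, the subunit through which Mediator contacts nuclear receptors, lay between 199 and 246 in WT (median 223, probe set 10390595) and between 197 and 234 in K289R (median 215). The groups overlapped nearly throughout, with a ratio of 0.967 and a 95% interval of 0.875 to 1.07 (limma adjusted p = 0.803). Nrip1, which encodes the corepressor RIP140, had WT intensities of 68.5 to 88.3 (median 78.9, probe set 10440406) and K289R intensities of 74.9 to 92.0 (median 79.8). Its ratio was 1.03 with an interval of 0.924 to 1.15 (limma adjusted p = 0.848). Without WT 1 and WT 3 the log2 differences of Med1 and Nrip1 were 0.0031 and -0.01, of opposite sign to those with all arrays.

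None of the 8 genes was called changed at an adjusted p under 0.05 (limma, Benjamini-Hochberg over all genes), against 0.572% of the 19938 genes tested. At an unadjusted p under 0.05 there was 1 of 8, Ncoa1, against 12% of all genes, and the exact permutation test also put 1 below 0.05. None of the 8 had groups that did not overlap, against 1.24% of all genes. In 6 of 8 the K289R mean was higher, against 46% of all genes. Among those 6, Ncoa2, Nrip1 and Prox1 changed sign under some of the other settings. The median log2 difference was 0.05, beside -0.01 over all genes. The median size of the difference, without regard to sign, was 0.049 for the 8 genes and 0.080 for all genes. Each of the 8 read at least 2.42 times the array median on every array.

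**Figure D2:**
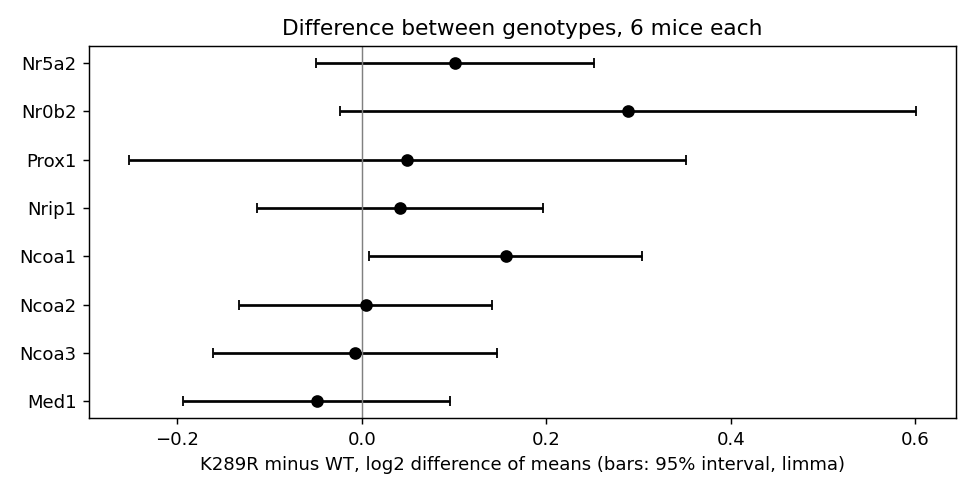
Log2 difference of K289R minus WT (x axis) for each of the 8 genes, with the 95% interval from limma as a bar. All intervals but that of Ncoa1 include 0, and those of Nr0b2 and Prox1 are the widest.

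SHP and Prox1 varied more among mice than the other members, but Prox1 did so in WT alone. Among K289R mice its log2 SD of 0.058 was the smallest of all members. Pooled over the genotypes, the SD on the log2 scale was 0.31 for Nr0b2 and 0.29 for Prox1, and 3.78% and 4.44% of the 9969 genes at or above the median level had an SD at least as large. The receptor, the 3 coactivators, Med1 and Nrip1 had pooled SDs of 0.086 to 0.12, below the 0.14 that was the median of those genes. Ncoa1 had the opposite pattern to Prox1, with a log2 SD of 0.060 in WT and 0.14 in K289R, but the exact permutation test of its spread gave p = 0.152.

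**Figure D3:**
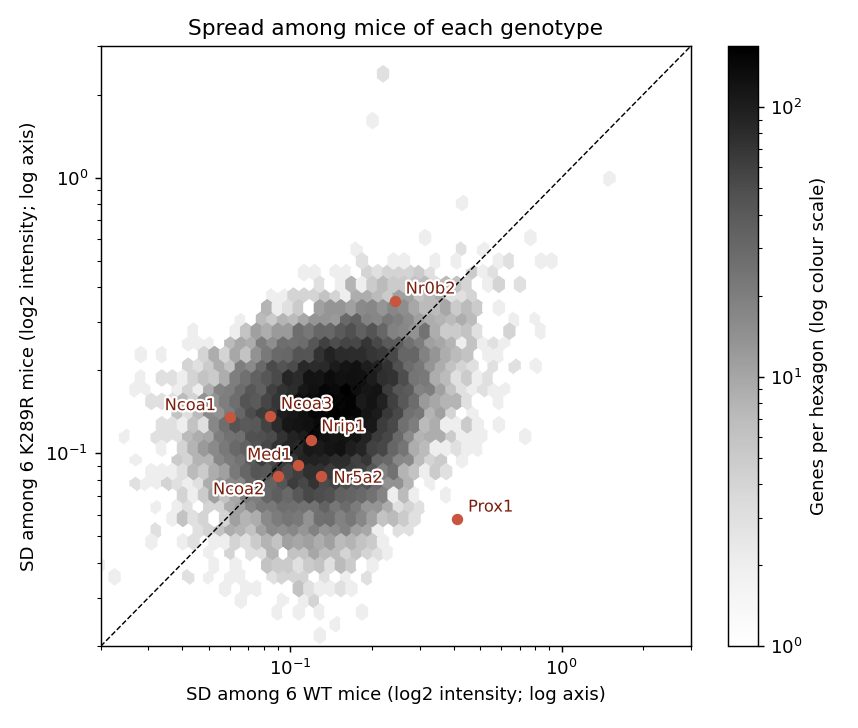
SD of log2 intensity among the 6 WT mice (x axis) against that among the 6 K289R mice (y axis), both on log axes, for all 19938 genes (grey hexagons, darker with more genes) and the 8 members (red). Prox1 lies at 0.41 and 0.058, far to the right of the dashed line of equal spread.

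Whether the receptor, its repressor and the bile acid enzymes moved together from mouse to mouse was examined in 6 relations, over 12 mice after each genotype's mean had been subtracted. Cyp7a1, the rate-limiting enzyme of classical bile acid synthesis and a gene that SHP represses, was low where Nr0b2 was high: Pearson r = -0.63 (permutation p = 0.0271, adjusted p = 0.163 over the 6 relations) and Spearman rho = -0.60 (permutation p = 0.0451, adjusted p = 0.271). The relation did not pass the adjustment. It was r = -0.83 without WT 3 and K289R 2, the mice farthest from the median of Nr0b2.

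Within the genotypes the relation of Nr0b2 to Cyp7a1 looked different. The 12 tests within genotypes were not in the plan and were added after the correlations had been seen. In K289R mice the order of the 6 mice by Cyp7a1 was the exact reverse of their order by Nr0b2 (rho = -1.0, r = -0.995, n = 6, exact permutation p = 0.00139, the smallest that 6 mice can give, and adjusted p = 0.0167 over the 12 tests within genotypes). K289R 2, with the lowest Nr0b2 (214), had a Cyp7a1 intensity of 1235, and K289R 1 (Nr0b2 275) had 942. K289R 5, 4, 6 and 3, with Nr0b2 of 355, 366, 375 and 416, had Cyp7a1 of 655, 654, 628 and 587. Without K289R 1 and K289R 2 the remaining 4 mice gave r = -0.977, and without the acinar arrays K289R 1 and K289R 3, which also left 4, r = -0.999. In that last set K289R 2 lay far from the others, which lay close together, so its r rests mainly on 1 mouse. Correlations of -0.9 or lower with Nr0b2 among the 6 K289R mice were found for 0.492% of genes, and 1 gene, Cyp7a1 itself, was at or below its value.

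In WT mice the relation was r = -0.31 and rho = -0.37 (n = 6, exact permutation p = 0.519), and 35.7% of genes had an r with Nr0b2 as low. WT 1 and WT 3, the acute phase arrays, had the lowest WT Cyp7a1 values, 345 and 367, although their Nr0b2 values were 336 and 221, the highest and the lowest of the group. Without those arrays the other 4 WT mice gave r = -0.63. The difference between the genotypes in this relation was not tested. Cyp7a1 averaged 602 ± 239 over the WT mice and 783 ± 255 over the K289R mice (SD, n = 6 each, limma adjusted p = 0.496).

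**Figure D4:**
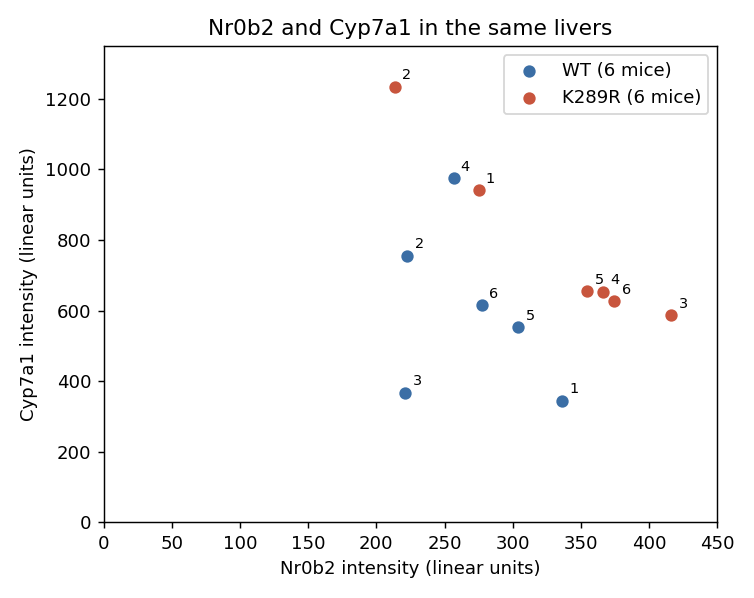
Nr0b2 intensity (x axis) against Cyp7a1 intensity (y axis) in each liver, linear units, with WT in blue, K289R in red and points numbered by replicate. The 6 K289R points fall along a descending line from 1235 to 587 on the y axis, whereas WT 1 and WT 3 lie low at both ends of the WT range of Nr0b2.

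The other 5 relations did not pass. Nr5a2 and Nr0b2 had r = 0.45 (rho = 0.44) over 12 mice (permutation p = 0.124, adjusted p = 0.372), with r = 0.25 without WT 2 and K289R 1. Receptor and corepressor, Nr5a2 and Prox1, had r = 0.40 (rho = 0.32, permutation p = 0.346, adjusted p = 0.692), and r = 0.57 without the same mice. Nr0b2 had r = -0.08 with Prox1 (permutation p = 0.798) and r = -0.03 with Cyp8b1 (permutation p = 0.917), with rho of -0.24 and -0.33. Nr5a2 and Cyp8b1 had r = 0.13 and rho = 0.035 (permutation p = 0.798). The adjusted p of these last 3 was 0.917.

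Over the same 12 mean-centred values, the genes most like Nr5a2 among the 9969 at or above the median level were Myo9b (r = 0.95), Ank (0.93), Maf (0.90), Ldhd (0.89) and Dnaja3 (0.89). Myo9b had r = 0.94 among the WT mice and 0.98 among the K289R mice. For Nr0b2 they were Mboat7 (r = 0.94), Gstt3 (0.90), Gchfr (0.89), Map3k13 (0.89) and Scand1 (0.86). For Prox1 they were Stat2 (r = 0.92), Mcm3ap (0.89), Nnmt (0.88), Pcbp1 (0.88) and Zzz3 (0.86). Prox1 varied little among K289R mice, and Nnmt, for instance, had r = 0.92 with it in WT and 0.13 in K289R. These genes were picked as the highest of many and share the same 12 arrays, so the r values are descriptions.

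Other genes of the same machinery were taken from fixed lists, written with earlier results of these data known. The counts called in them are therefore descriptions. Over all genes 0.481% were called higher and 0.0903% lower. Among 15 further coactivators and chromatin partners Ppargc1a rose, and the other 14 did not pass. It encodes PGC-1alpha, a coactivator of nuclear receptors that fasting induces in liver. WT intensities ran from 54.4 to 70.9 (median 56.4) and K289R intensities from 75.2 to 92.0 (median 85.1), so that every K289R mouse lay above every WT mouse. The rise was 1.42-fold (log2 difference 0.51, SE 0.08, limma adjusted p = 0.00426). These values are of its brightest probe set. With the mean of all its probe sets the log2 difference was 0.49 with an SE of 0.11. That setting only just passed (limma adjusted p = 0.0499). The next smallest p in this list belonged to the acetyltransferase Kat2b, at 1.17-fold (limma adjusted p = 0.239), and the list median was -0.03.

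None of 15 further corepressor genes was called (limma), and 4 had an unadjusted p under 0.05. The deacetylase Hdac3, the catalytic partner of the Ncor1 complex, averaged 231 ± 17.5 over WT mice and 270 ± 18.0 over K289R mice (SD, n = 6 each), 1.17-fold (limma adjusted p = 0.199). The deacetylase Hdac2 followed at 1.19-fold (limma adjusted p = 0.231). The list median was 0.04. Of 30 further Mediator subunits and kinase-module genes none was called either and 2 had an unadjusted p under 0.05, Med18 (1.17-fold, limma adjusted p = 0.278) and Med27 (0.893-fold, limma adjusted p = 0.356). Their median was 0.03 and the range -0.16 to 0.23.

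Among 12 measured regulators of Nr0b2 and genes of bile acid feedback, Klb rose and 11 did not pass. Klb encodes beta-Klotho, the coreceptor through which intestinal FGF15 signals to hepatocytes to repress Cyp7a1. WT mice read 97.6 to 137 and K289R mice 156 to 215, with no overlap, a 1.52-fold rise (log2 difference 0.60, limma adjusted p = 0.00519). Without K289R 1 and 3 and WT 1 and 3 together the log2 difference was 0.57 and did not pass (limma adjusted p = 0.0598). The bile acid receptor FXR, Nr1h4, which induces Nr0b2, had the next smallest p at 1.17-fold, from 286 ± 22.7 to 334 ± 32.2 (SD, n = 6 each, limma adjusted p = 0.259). The FGF15 receptor Fgfr4 was at 1.06-fold and the receptor Hnf4a at 0.912-fold, and the list median was 0.11.

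Of 10 measured genes that LRH-1 or SHP is known to control, 4 rose: the oxysterol-binding protein Osbpl3, the steroid hydroxylase Cyp17a1 and the sterol exporters Abcg5 and Abcg8. The other 6 did not pass, the bile acid enzymes Cyp7a1 and Cyp8b1 among them (1.34-fold and 1.27-fold, limma adjusted p = 0.496 and 0.356). The list median was 0.38. Osbpl3 and the exporters were put on the list with published work on this mouse line known, so the direction of this list has no independent support from it. The receptor itself and SHP differed by 1.07-fold and 1.22-fold, whereas Osbpl3, with a WT mean of 26.0 that is below every array's median, had a log2 rise of at least 1.59 (limma adjusted p = 1.36e-07). Cyp17a1 went from 145 ± 37.9 to 620.4 ± 201 (SD, n = 6 each), 4.24-fold (limma adjusted p = 9.33e-06), and Abcg5 from 198 ± 28.3 to 314 ± 40.8 (SD, n = 6 each), 1.59-fold (limma adjusted p = 0.00426). Neither gene's K289R mice overlapped its WT mice. Abcg8 (1.51-fold, limma adjusted p = 0.0164) did not pass with all 35556 rows tested (adjusted p = 0.0705), without K289R 5 (adjusted p = 0.0506), without K289R 1 and 3 (adjusted p = 0.0560) or without WT 1 and 3 (adjusted p = 0.0936). Without all 4 of those arrays 2 of the 10 were called, and Abcg5 had an adjusted p = 0.0573.

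**Figure D5:**
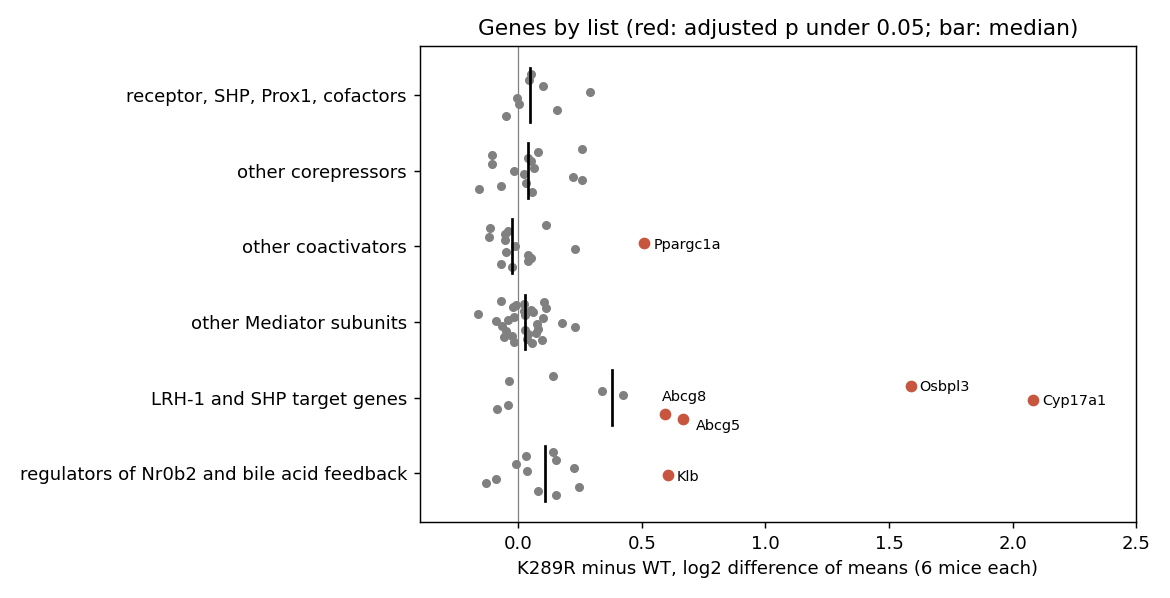
Log2 difference of K289R minus WT (x axis) for each gene of the members and of 5 lists (rows), with genes called at an adjusted p under 0.05 named in red, others in grey, and the median of each row as a black bar. None of the 8 members, the 15 corepressors or the 30 Mediator genes is red, and the target list has 4 red genes.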

How the data were processed

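Total liver RNA of 12 mice was measured on Affymetrix gene arrays. The authors deposited 1 linear, summarized intensity for each probe set on each array, made with Affymetrix Expression Console per the submitters' processing notes. How they were summarized, background-corrected and normalized, and on which genome build, is not given in the sources used here. Array medians lay between 26.8 and 29.2, so the arrays had been brought to a common scale. No detection call was used, and the number of arrays limits the precision.

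Of 35556 rows, 21789 had 1 gene symbol, 1621 several and 12146 were not listed. Rows with 1 symbol were named through RefSeq gene IDs (GRCm38.p6), where 21698 matched. A gene with several probe sets was represented by the one with the highest mean. The values were put on the log2 scale with no pseudocount, and the genotypes were compared with limma 3.58.1 (R 4.3.3; lmFit, eBayes, no covariates), with Benjamini-Hochberg adjustment over 19938 genes and a threshold of 0.05. Means ± SD are of linear intensities, and folds are from mean log2 values. Permutation tests of single genes were exact. Correlations over 12 mice used 100000 permutations within genotypes. A fold against an intensity below the array medians is written as at least the measured fold.

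Members, lists and tests were chosen with earlier results of these data known. Named genes were all members, in each list up to 4 called genes or else, with under 2 called, the 2 smallest p, and the 5 genes most like Nr5a2, Nr0b2 and Prox1. Hnf4a, Fgfr4, Cyp7a1 and Cyp8b1 were named outside that rule for their place in the loop. Replicate numbers were checked for pairing: deviations of same-numbered mice correlated between -0.23 and 0.23, so no block was used. On data simulated for this comparison over 19938 genes, limma called 86 of 100 genes changed 1.5-fold and 100 of 100 changed 2-fold, with 5 false calls. Alternatives were scaling, quantile normalization, dim genes left out, probe set averaging, all rows, variance model, array weights, pseudocounts, a replicate block and left-out arrays. The arrays K289R 1 and 3 and WT 1 and 3 were left out as settings added with the data known.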

Additional observations from a re-analysis of the deposited data

How the results depend on the processing

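Over 25 alternative settings no member was called changed. The lowest adjusted p (limma) over them was 0.191, for Ncoa1. Nr5a2, Nr0b2 and Ncoa1 kept a positive difference throughout, from 0.047 to 0.16, from 0.22 to 0.41 and from 0.12 to 0.20 on the log2 scale. Differences near 0 changed sign in 18 of 200 values, and the cause was not tested. Ncoa2 was -0.041 with quantile normalization and Ncoa3 was 0.030 with equal array medians. Without K289R 1 and 3 Ncoa3 was 0.059. Without WT 1 and 3 Med1 was 0.0031 and Nrip1 -0.012. Without all 4 arrays Ncoa3 was 0.064, Med1 0.031 and Nrip1 -0.035. Leaving out 1 mouse moved Ncoa2 between -0.019 and 0.031, Ncoa3 between -0.035 and 0.040 and Prox1 between -0.090 and 0.14.

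The 114 genes called over all became 164 with dim genes left out, where 9969 were tested, 61 with all 35556 rows tested, 75 without K289R 1 and 3 and 65 without all 4 arrays, and ranged from 81 to 159 when 1 mouse was left out. Without all 4 arrays 2 genes of the target list and 0 of the Nr0b2 regulators were called. With the replicate number as a block 111 genes were called, and no member or list count changed. The labels do not say that same-numbered mice share an origin, and 1 of 6 WT arrays correlated best with its own number. No detection call was used, so how far dim signals stand above background is not known here. With 6 mice per genotype, rises up to 1.52-fold of Nr0b2 and 1.28-fold of Prox1 lay inside the intervals. No value of a member stood apart from its group by Dixon's criterion at 95%.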
